A study of Mus musculus with 3 samples.

Results

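Regulatory T cells are CD4 T cells that hold back other immune cells. They depend on the transcription factor Foxp3, take up the growth factor IL-2 through a high-affinity receptor that contains the Il2ra chain, and carry receptors such as Ctla4 and Tnfrsf4 at high levels. In tumours they are known mainly as suppressors of T cell attack, and in injured or barrier tissue a subset that makes the growth factor amphiregulin (Areg) is known for supporting repair. Here 723 of 43730 sorted cells were taken as regulatory T cells, selected on their counts of marker genes. A cell had to hold at least 2 counts of the CD3 genes Cd3d, Cd3e and Cd3g together, at least 1 count of Foxp3, and at least 2 of Cd4, Il2ra, Ikzf2 and Tnfrsf4 together. It could hold at most 1 count of the CD8 genes Cd8a and Cd8b1 and had to have fewer than 10 of the complement genes C1qa, C1qb and C1qc, which mark macrophages.

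The cells came from tumours of the mouse melanoma line YUMM1.7, grown under the skin after injection of 500000 cells and taken 18 days later, and were sorted as live, CD45-positive cells, CD45 being a surface protein of leukocytes. Mice were 4, 12 or 20 months old, with 7 mice per age, all given the same tumour line and no other treatment that the labels name; strain and sex are not given in the sources used here. There was 1 library per age, made with PIP-seq, a droplet method that captures the 3′ ends of RNA, and the labels do not say whether the mice were pooled. Age therefore has no replicate: differences between ages compare 3 libraries, carry no test, and have 95% intervals that cover counting error only.

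At 4 months 370 of 14393 cells were regulatory T cells, at 12 months 205 of 14653, and at 20 months 148 of 14684. They held 2176506, 1325403 and 905367 counts in all, with a median per cell of 5046, 5801 and 5228 counts. Libraries shared 2 to 4 cell barcodes pairwise. Levels are given as CPM: the counts of a gene summed over the cells of a type in a library, scaled to a common total.

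The genes that chose the cells are described without a test. Foxp3 lay at 321, 284 and 283 CPM at 4, 12 and 20 months. Ikzf2, which encodes the regulatory T cell factor Helios, lay at 770, 552 and 735 CPM. Il2ra lay at 298, 264 and 288 CPM. Tnfrsf4, which encodes the costimulatory receptor OX40, lay at 2241, 1999 and 1774 CPM. These levels follow from the rule, which asked for a Foxp3 count and for counts of the other genes. On GRCm38, in the gene records of GENCODE M21, Foxp3 lies at chrX:7573644-7595245, Klrg1 at chr6:122270596-122282882 and Izumo1r at chr9:14885814-14903949. Of the 7 markers given for this cell type, only Areg, Klrg1 and Izumo1r were not used by the rule.

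Levels of those 3 markers were set beside those in other cell types. The markers came with the label, which was chosen with results of these data known, so their levels are no independent evidence for it. Klrg1, an inhibitory receptor of differentiated T cells, lay at 646, 517 and 503 CPM at 4, 12 and 20 months. In macrophages, taken as cells with at least 10 counts of the C1q genes and none of CD3, it lay at 14.1, 27.0 and 5.85 CPM. Izumo1r, the folate receptor FR4 of regulatory T cells, lay at 283, 285 and 304 CPM, against 4.21, 14.7 and 1.67 CPM in macrophages. Areg lay at 247, 206 and 374 CPM, against 3.28, 0 and 1.67 CPM in macrophages. All 3 genes were higher in regulatory T cells than in each other cell type compared, in every library, as the plot of levels by cell type shows. Genes of melanoma cells summed to 9.65, 9.05 and 14.4 CPM over a list of 7, of which 2 had no count, and genes of B cells to 26.2, 24.1 and 23.2 CPM over a list of 6.

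**Figure D1:**
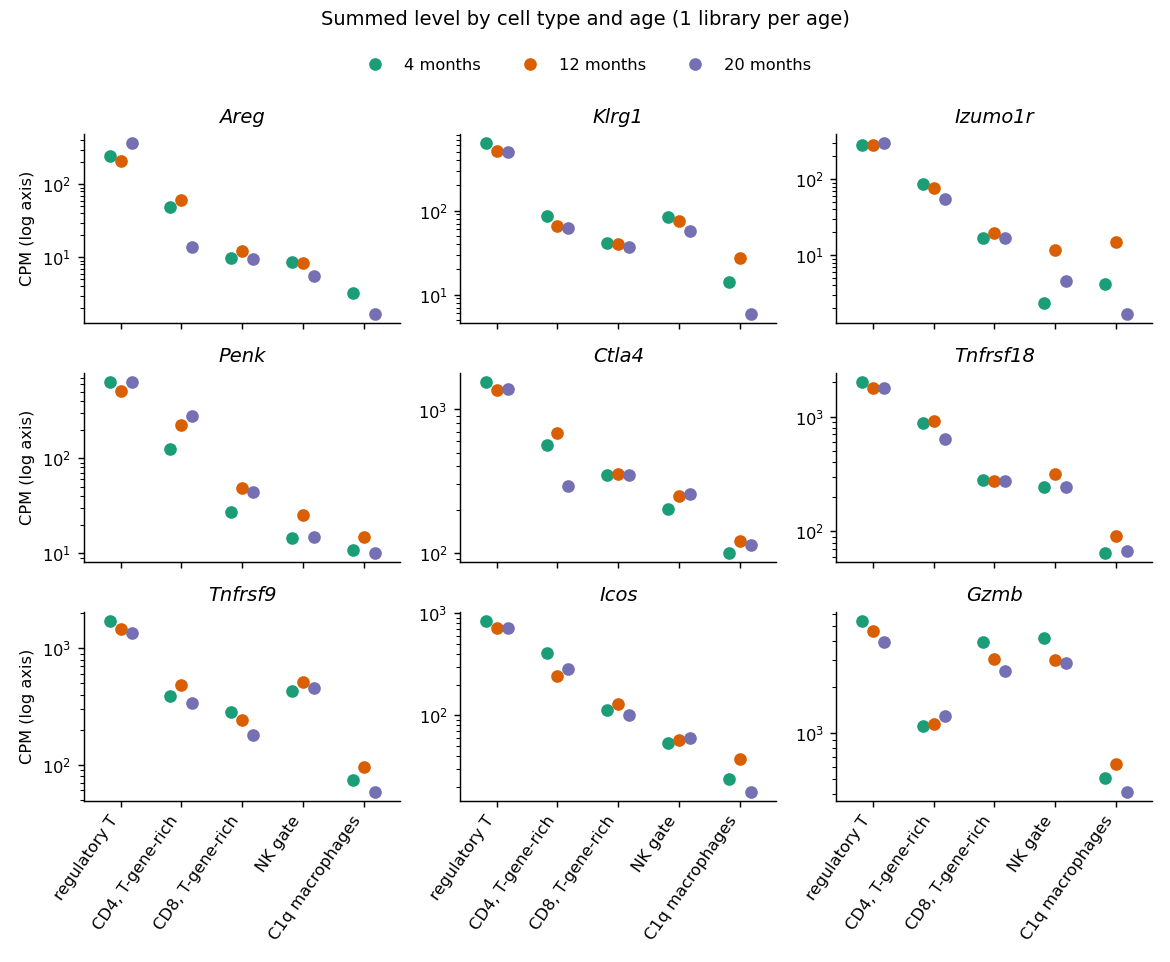
Summed level (CPM, log axis) of 9 genes in regulatory T cells, in CD4-gated Foxp3-zero and CD8-gated cells rich in T cell genes, in NK-gated cells and in C1q macrophages; each point is 1 library, coloured by age, with no error bar because there is 1 library per age. Areg, Klrg1 and Izumo1r are highest in regulatory T cells at every age; Areg in macrophages at 12 months is 0 and is not drawn.

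Other cell types left some signal. Genes of natural killer (NK) cells summed to 799.9, 796 and 310 CPM over a list of 7 genes, none of them at 0. In NK-gated cells they summed to 7612, 5169 and 5253 CPM. The NK gate asked for counts of Ncr1 and Klrb1c together, both on that list, and for no CD3 count. Part of that gap therefore follows from the gate. Genes of monocytes and macrophages summed to 3491, 4340 and 3817 CPM over 12 genes, none of them at 0, against 22056, 22098 and 24147 CPM in macrophages. This list includes C1qa, C1qb and C1qc, which were limited in regulatory T cells and required in macrophages. Part of this gap too follows from the gates. The 10 cells with the most counts of the lysozyme gene Lyz2 held 48.8%, 63.0% and 63.3% of its counts, so a few cells carried much of it. A sum over 8 T cell genes (Cd3d, Cd3e, Cd3g, Trac, Trbc1, Trbc2, Lck and Lat) reached 40 or more per 10000 counts in 91.6%, 87.3% and 86.5% of the regulatory T cells. Cells that reach this level are called T-gene-rich below, and the comparisons between cell types were repeated on them.

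By the rule, regulatory T cells were 2.57% of the 4-month library, with an exact Clopper-Pearson interval of 2.32 to 2.84. They were 1.40% of the 12-month library (1.22 to 1.603) and 1.01% of the 20-month library (0.853 to 1.18). The share was lower by 1.17 percentage points at 12 months (interval of the difference −1.50 to −0.852) and by 1.56 points at 20 months (−1.87 to −1.26). With every cell thinned at random to 3500 counts before the rule was applied, the shares were 2.45%, 1.75% and 1.26%.

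The limit on CD8 counts did not act alike in the 3 libraries. Of the cells that met the Foxp3, CD3 and CD4-side conditions, it removed 285 of 671 at 4 months, 705 of 924 at 12 months and 446 of 607 at 20 months, which are 42.5%, 76.3% and 73.5%. In cells with few T cell genes, under 25 per 10000 counts, Cd8a and Cd8b1 together still came to 1.74, 2.96 and 2.78 per 10000 counts, so the background of CD8 counts moved with the loss; its part in the shares was not tested. Without the limit the shares were 4.40%, 5.30% and 3.15%, and 12 months then lay 0.905 points above 4 months. With limits scaled to each cell's depth, a gate chosen after seeing these values, the shares were 3.20%, 2.76% and 1.72%. The 20-month share was the lowest under each gate drawn in the plot of shares; the place of the 12-month share depended on the CD8 limit.

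**Figure D2:**
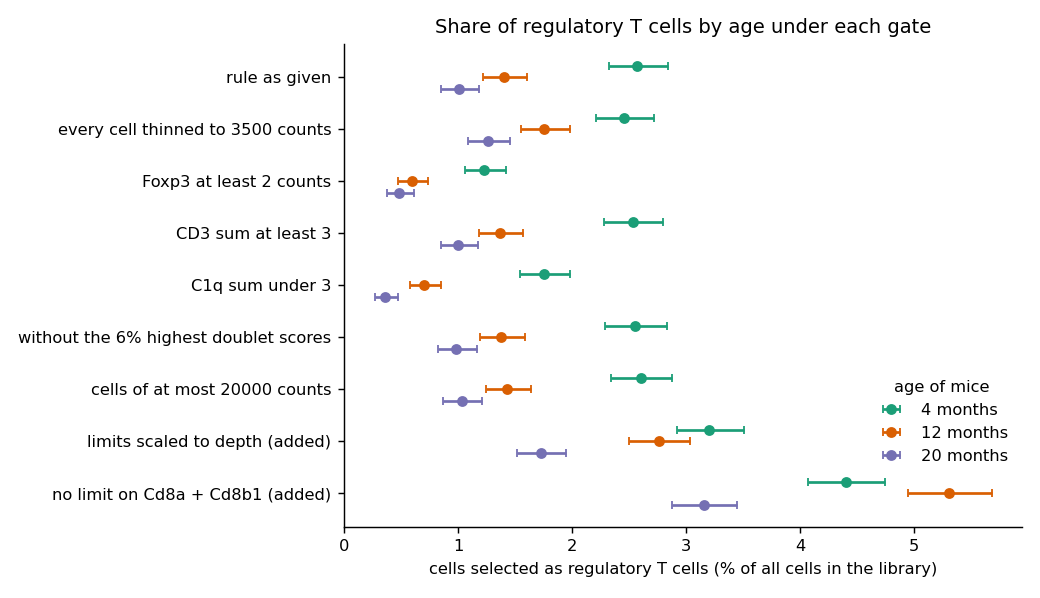
Cells selected as regulatory T cells as a percentage of all cells in the library, at 3 ages, under the rule as given and 8 other gates; points are single libraries and bars are exact 95% binomial intervals, counting error only. The 20-month point lies lowest in each row, and only without the CD8 limit does the 12-month point lie above the 4-month one.

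Cells just outside that limit carried the same markers. At 4 months the 188 cells with 1 CD8 count had Ctla4 at 1478 CPM, Izumo1r at 291 and Areg at 210 CPM. The 116 cells with 2 CD8 counts, which met every other condition, had 1381, 240.1 and 128 CPM. Areg in the cells with 1 and with 2 CD8 counts lay at 194 and 305 CPM at 12 months, and at 297 and 107 CPM at 20 months. Around the Foxp3 limit the step was larger: Ctla4 lay at 1406 CPM in the 193 cells with 1 Foxp3 count at 4 months and at 501 CPM in the 773 with none that met the other conditions.

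The next question was which other genes set these cells apart from the other CD4 cells of the same tumours. The comparison cells held Cd4 but no Foxp3 and no Ikzf2 count, with the same CD3, CD8 and C1q limits, and numbered 100, 87 and 72. A Cd4 count was seen in only 46.8%, 45.4% and 53.4% of the regulatory T cells. The rest entered on counts of Il2ra, Ikzf2 or Tnfrsf4. The gates thus differ on these genes, and what that adds to the differences below was not tested. Counts were summed per library and cell type and tested with edgeR's quasi-likelihood test, with the library as a block and Benjamini-Hochberg adjustment over the 8068 genes tested, the 13 genes of the rule left out. The 3 libraries, of different ages, served as replicates, and the labels do not say whether each holds pooled mice. Of the genes tested, 522 (6.47%) were higher and 716 (8.87%) were lower in regulatory T cells at an adjusted p under 0.05. Only 57.0%, 52.9% and 37.5% of the comparison cells were T-gene-rich, and their summed monocyte and macrophage genes came to 7857, 8606 and 7267 CPM. Among T-gene-rich cells of both types 270 and 386 of 6350 genes passed, 213 higher and 208 lower genes passed both ways, and 93 calls had the opposite sign there. Without the 4-month library 288 genes were higher and 374 lower.

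The marker genes left out of the rule were among the strongest, which is no independent evidence, since they came with the label. Klrg1 was at 646, 517 and 503 CPM in regulatory T cells and at 59.4, 57.5 and 60.4 CPM in the other CD4-gated cells at 4, 12 and 20 months. No level of the first group came near the second, and the log2 fold was 3.21 (SE 0.12, edgeR adjusted p = 4.64e-07). Areg was at 247, 206 and 374 CPM against 21.9, 42.7 and 8.95 CPM, a log2 fold of 3.31 (SE 0.32, edgeR adjusted p = 0.000123). Izumo1r was at 283, 285 and 304 CPM against 43.8, 36.1 and 17.9 CPM, a log2 fold of 3.06 (SE 0.19, edgeR adjusted p = 1.15e-05). Among T-gene-rich cells the log2 folds of Klrg1, Areg and Izumo1r were 3.07, 2.59 and 2.07, each still past the test. The sizes depended on leaving Ikzf2-positive cells out of the comparison: with those cells kept, Klrg1 had a log2 fold of 1.43 and Areg one of 1.31, both still called.

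Identity genes of the lineage were higher as a group. Of 13 tested genes on the list, 11 rose and none fell, beside 6.47% of all genes that rose; 10 of 12 passed among T-gene-rich cells. The list was drawn up with results of these data known, so its direction is no independent evidence. Its median log2 fold was 2.06, against −0.00 over all genes tested. Ctla4, the receptor that takes CD80 and CD86 from antigen-presenting cells, was at 1565, 1376 and 1399 CPM against 333, 432 and 215 CPM (log2 fold 2.13, SE 0.14, edgeR adjusted p = 1.78e-05). Ikzf4, which encodes the Foxp3 partner Eos, had a log2 fold of 3.10. Capg, an actin-capping protein, had one of 1.44, and Itgae, the integrin chain CD103 that binds E-cadherin, one of 2.44. Lrrc32, which encodes GARP, the surface anchor of latent TGF-beta, had 89 counts in regulatory T cells and none in the comparison cells. Against a floor of 3 counts over that group it was at least 11.4-fold higher. Nrp1 did not pass the test, with a log2 fold of −0.75.

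Molecules of suppression rose in part. Of 16 tested genes, 10 rose and 1 fell, beside 6.47% and 8.87% of all genes tested. Il10, an inhibitory cytokine, was at 163, 106 and 138 CPM against 65.7, 64.1 and 55.9 CPM, with a log2 fold of 1.08 that was 0.60 and no longer called among T-gene-rich cells. Ebi3, a chain of the cytokine IL-35, had a log2 fold of 1.74. The other IL-35 chain, Il12a, lay at 0.919, 1.51 and 0 CPM in regulatory T cells. Itgb8, an integrin chain that activates TGF-beta, had a log2 fold of 2.76 and Entpd1, the ectoenzyme CD39, one of 0.89. Pdcd1, the checkpoint receptor PD-1, was the gene that fell, with a log2 fold of −0.68, and −1.61 among T-gene-rich cells. Lag3 did not pass, at 0.11.

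Costimulatory receptors and genes linked to tissue repair formed another high group. Of 8 costimulatory receptors tested, 6 rose and none fell, beside 6.47% and 8.87% of all genes tested. Among T-gene-rich cells 5 of 7 rose and Cd226, an activating adhesion receptor, fell, beside 270 and 386 of 6350 genes. Tnfrsf18, which encodes GITR, was at 2014, 1778 and 1754 CPM against 474, 508 and 325 CPM, a log2 fold of 2.06. Tnfrsf9, which encodes 4-1BB, had a log2 fold of 2.19 and Icos one of 2.31. Of 12 tissue repair genes 9 rose and none fell, though 4 passed among T-gene-rich cells, namely Areg, Klrg1, Penk and the transcription factor Maf. Penk, the precursor of enkephalin peptides, was at 633, 503 and 638 CPM against 59.4, 131 and 98.5 CPM, a log2 fold of 2.59. In the gates scaled to depth its 12-month level was 824 CPM in regulatory T cells and 940 CPM in the other CD4 cells, so that difference did not hold in every gate. Il1rl1, the IL-33 receptor ST2, was at 22.97, 20.4 and 18.8 CPM, and Ccr8, a receptor often used to mark tumour regulatory T cells, at 11.5, 12.8 and 9.94 CPM.

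Granzyme B stood apart from the other killing genes. Gzmb, a protease that lymphocytes release to kill or restrain other cells, was at 5458, 4697 and 3960 CPM in regulatory T cells against 1226, 1475 and 1625 CPM in the other CD4-gated cells (log2 fold 1.67, SE 0.13, edgeR adjusted p = 4.46e-05). The log2 fold was 2.05 among T-gene-rich cells. In NK-gated cells Gzmb lay at 4230, 3039 and 2872 CPM, below the regulatory T cells of the same library each time. Of the 10 cytotoxic genes, Gzmb alone rose and 8 fell: Gzma, Gzmc, Gzmk, Nkg7, Ctsw, Klrd1, Klrk1 and Fasl. Among T-gene-rich cells the numbers were again 1 and 8. Of all genes tested, 6.47% rose and 8.87% fell with all cells of the gates. The NK list, which shares Gzma and Prf1 with this one, moved the same way: it summed to 1911, 1644 and 2860 CPM in the other CD4-gated cells, and 5 of its 7 genes were called lower in regulatory T cells. Among T-gene-rich cells it summed to 545, 517 and 238 CPM in regulatory T cells and to 1044, 769.9 and 743 CPM in the other CD4 cells; its part in the cytotoxic genes was not tested. Prf1, the pore-forming perforin, did not pass in this comparison. Granzymes are close relatives, and how reads shared between them were counted is not given in the sources used here.

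Part of the effector cytokine list fell. Of its 19 genes 11 were tested, of which none rose and 6 fell, beside 8.87% of all genes that fell. The 6 were Xcl1, Tnfsf8, Ifng, Ccl5, Tnfsf11 and Cd40lg, with no interleukin gene among them. Among T-gene-rich cells 8 of 11 fell. The NK list summed higher in the other CD4-gated cells, as given above, and its part in the cytokine genes was not tested. Cd40lg, the CD40 ligand with which helper T cells activate B cells and dendritic cells, was at 4.14, 4.53 and 1.10 CPM against 50.04, 34.5 and 29.1 CPM. Its log2 fold was −3.48 (SE 0.36, edgeR adjusted p = 0.000152). Tnfsf11, which encodes RANKL, had a log2 fold of −2.71, Tnfsf8, which encodes the CD30 ligand, one of −2.15, and Ifng, which encodes interferon gamma, one of −1.43. Xcl1, a chemokine for cross-presenting dendritic cells, fell by 2.10 on the log2 scale.

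**Figure D3:**
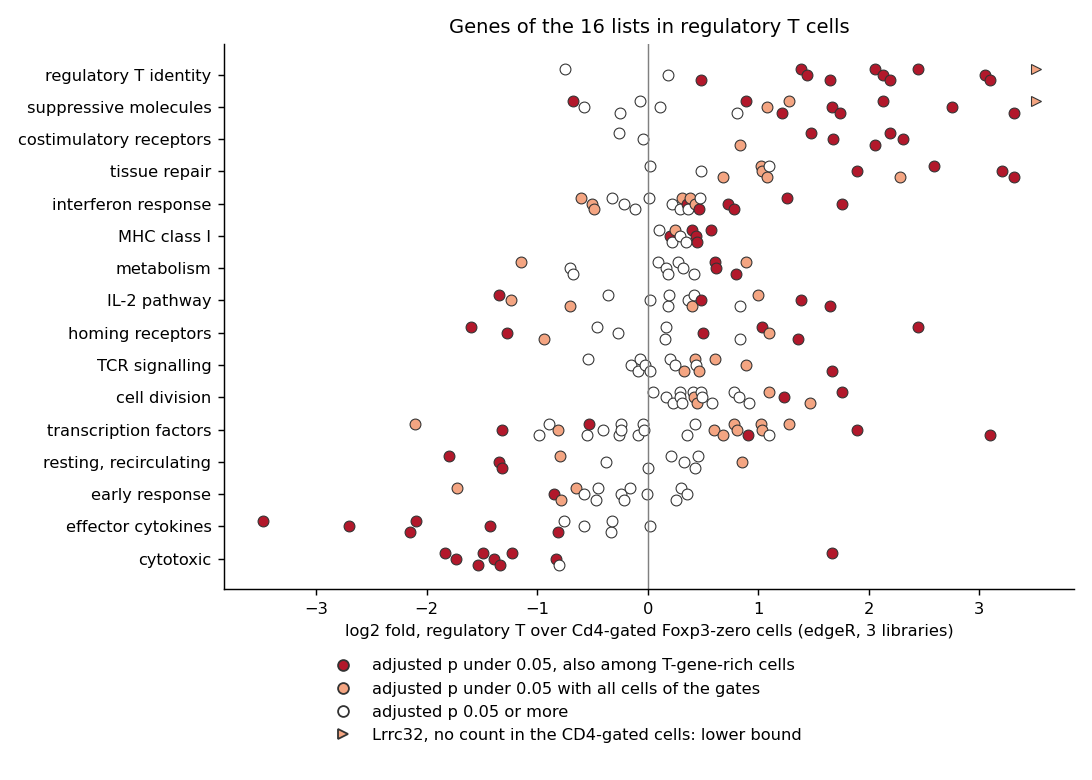
Log2 fold of each tested gene of 16 lists, regulatory T over CD4-gated Foxp3-zero cells, from edgeR on sums of 3 libraries; each point is a gene, filled by whether it passed the test, and the triangle is the lower bound for Lrrc32. Identity genes lie mostly to the right of 0 and cytotoxic genes to the left, with Gzmb the cytotoxic gene at 1.67.

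Homing and interferon genes were mixed. Over all genes tested 6.47% rose and 8.87% fell, and among T-gene-rich cells 270 and 386 of 6350. Of 13 homing receptors 5 rose and 3 fell: Itgae, Itgb7, Cxcr3, Ccr2 and S1pr4 were higher, and Cxcr6, Itgb1 and Ccr1 lower. Cxcr6, whose ligand is made by dendritic cells, had a log2 fold of −1.595. Of 20 interferon response genes 9 rose and 3 fell; the interferon-induced GTPases Iigp1 and Igtp had log2 folds of 1.76 and 1.26. Among T-gene-rich cells 8 rose and none fell. Of 10 MHC class I genes 6 rose, all by less than 1 on the log2 scale, H2-K1 by 0.44 and B2m by 0.20. Of 11 resting or recirculating genes 4 fell and 1 rose; Tcf7, a factor of naive and memory cells, had a log2 fold of −1.80 and the survival gene Bcl2 one of −1.35. Of 15 IL-2 pathway genes 5 rose and 3 fell (3 and 1 among T-gene-rich cells), with Cish and Socs2, both feedback inhibitors of cytokine signals, at 1.65 and 1.38.

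The remaining lists moved less or depended on the comparison cells. They stand beside 6.47% of all genes that rose and 8.87% that fell, and among T-gene-rich cells 270 and 386 of 6350. The smallest counts below lie near those shares. Of 27 transcription factors 10 rose and 4 fell, and among T-gene-rich cells 3 of 24 rose and 2 fell; Maf had a log2 fold of 1.90. Of 15 T cell receptor signalling genes 6 rose and none fell with all cells, but 1 rose and 3 fell among T-gene-rich cells. Of 19 cell division genes 6 rose, and 2 of 16 among T-gene-rich cells. Of 13 metabolism genes 4 rose and 1 fell, with the glycolytic genes Pkm and Ldha at log2 folds of 0.80 and 0.61. Of 14 early response genes none rose and 4 fell, 2 of them among T-gene-rich cells.

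By size, the 10 highest named genes of this comparison were Mt2, Ncmap, F830016B08Rik, Neb, Lamc1, Areg, Klrg1, Ikzf4, Gm45030 and Igsf23, and all of them also passed among T-gene-rich cells. With Ikzf2-positive comparison cells kept, Mt2 and Gm45030 did not pass, at log2 folds of 0.50 and 0.68. Mt2, a metal-binding metallothionein, was at 31.7, 32.4 and 80.6 CPM against 1.56, 3.29 and 2.24 CPM. Its 10 highest cells held 62.3%, 93.0% and 89.0% of its counts. Neb, which encodes the muscle protein nebulin, was at 111, 73.2 and 66.3 CPM against 6.26, 3.29 and 13.4 CPM. Lamc1, a laminin chain, had a log2 fold of 3.42. The 10 lowest were Cd40lg, Gpm6b, Tnfsf11, Nrgn, Chil3, Tnfsf8, Cxcl9, Clec4e, Ier3 and Xcl1. Chil3, Clec4e, Nrgn and Ier3 were too low to be tested among T-gene-rich cells and Cxcl9 did not pass there, with a log2 fold of −0.35.

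Against CD8 T cells the same marker genes stood out. The CD8 cells held at least 2 CD3 and 2 CD8 counts and no Cd4 or Foxp3 count, and numbered 5291, 7725 and 6978, of which 72.3%, 68.2% and 74.1% were T-gene-rich. Of 19232 genes tested, 1611 (8.38%) were higher and 2131 (11.1%) lower in regulatory T cells. Among T-gene-rich cells 1395 of the higher and 1470 of the lower genes passed as well. Areg was at 7.74, 10.4 and 8.29 CPM in CD8 cells, a log2 fold of 4.84 (SE 0.13, edgeR adjusted p = 2.05e-22). The log2 folds of Izumo1r, Penk, Klrg1 and Ebi3 were 4.30, 4.15, 3.56 and 3.50. Maf followed at 3.50, Icos at 3.01 and Tnfrsf18 at 2.89. Of 13 identity genes 12 rose and none fell, and of 15 tissue repair genes 11 rose and none fell.

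Cytotoxic and memory genes were lower than in CD8 cells. Over all genes tested 8.38% were higher and 11.1% lower. Of 10 cytotoxic genes 9 fell, and Gzmb rose: it was at 3387, 2759 and 2212 CPM in CD8 cells, below regulatory T cells in each library, a log2 fold of 0.68 (SE 0.06, edgeR adjusted p = 1.36e-09). All 7 NK genes, Gzma and Prf1 among them, were called lower too. They summed to 1736, 1585 and 946 CPM in CD8 cells, and their part was not tested. Gzmk and the chemokine gene Ccl5 had log2 folds of −2.30 and −2.24, and Gzmm one of −2.59. Dapl1 was at 5.51, 6.79 and 3.31 CPM against 43.7, 53.3 and 50.1 CPM. Cxcr6 had a log2 fold of −2.23 and Ifng one of −1.71. Tcf7 and Bcl2 were lower as well, at −1.69 and −1.87. Of 20 cell division genes 11 fell and 1 rose, and 14 fell among T-gene-rich cells. The red cell genes Hba-a2, Hba-a1 and Hbb-bs were the lowest by fold with all cells, at −4.04, −3.90 and −3.27, and were −0.10, 0.08 and 0.13 among T-gene-rich cells, where none passed. The alpha-globin copies are near-identical, so their counts are uncertain.

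Areg and Gzmb, genes of the repair and cytotoxic lists that were higher in regulatory T cells than in both comparison types, are shown with the 250 bases before their start site. The sequences are RefSeq's on GRCm38.p6, read 5′ to 3′ on the strand of each gene. Matches to these motifs were sought on both strands: forkhead (GTAAACA), STAT (TTCNNNGAA), AP-1 (TGANTCA), CRE (TGACGTCA) and RUNX (TGTGGTT); capitals mark matches, and no match here overlaps another. Of 14 genes looked up, 9 had a window.
Areg: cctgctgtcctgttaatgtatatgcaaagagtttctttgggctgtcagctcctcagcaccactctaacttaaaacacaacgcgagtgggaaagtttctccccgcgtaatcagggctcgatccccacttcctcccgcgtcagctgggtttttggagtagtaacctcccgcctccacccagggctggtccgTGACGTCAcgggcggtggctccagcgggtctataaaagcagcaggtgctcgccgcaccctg
Gzmb: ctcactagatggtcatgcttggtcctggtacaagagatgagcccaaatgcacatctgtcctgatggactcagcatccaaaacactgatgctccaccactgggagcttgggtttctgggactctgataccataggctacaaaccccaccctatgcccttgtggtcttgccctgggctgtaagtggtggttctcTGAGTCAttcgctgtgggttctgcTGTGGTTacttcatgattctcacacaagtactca
The Areg window lies at chr5:91139349-91139598 on the plus strand, directly before the gene at 91139599 to 91148432, and holds 1 CRE match, whose first base is 61 bases before the start. The Gzmb window lies at chr14:56262335-56262584 on the minus strand. It does not adjoin the gene record of GENCODE M21, which ends at 56262260. The window holds 1 AP-1 and 1 RUNX match, 58 and 34 bases before RefSeq's start. Of 32851 windows of this length, 1.55% held the CRE letters, 6.75% the AP-1 letters and 4.40% the RUNX letters, 3.17% the forkhead and 7.02% the STAT letters. A match describes letters only.

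Within the regulatory T cells, markers were unevenly spread. With each cell thinned to 3500 counts, Klrg1 was seen in 60.0%, 52.7% and 50% of cells at 4, 12 and 20 months, with exact intervals of 54.8 to 65.0, 45.6 to 59.7 and 41.7 to 58.3. Macrophages, which should lack it, showed a count in 4.11%, 10.3% and 2.84% of cells. The share at 20 months lay 10 points under that at 4 months, with an interval of −19.3 to −0.569. That depended on the thinning and the rule: the difference was −8.92 points (−18.2 to 0.185) without thinning, −2.84 (−12.1 to 6.65) when thinned to 2000 counts, and −10.6 (−23.9 to 2.59) with at least 2 Foxp3 counts. Areg was seen in 24.9%, 26.3% and 28.4% of cells, against 1.37%, 0% and 0% of macrophages; 0 of 58 macrophages at 12 months has an exact upper bound of 6.16%. Izumo1r was seen in 51.1%, 50.2% and 56.1%. Klrg1 and Areg were seen together in 14.6%, 15.6% and 15.5% of cells.

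Il10 was seen in 28.6%, 24.4% and 27.7%, with 13.4%, 15.5% and 14.2% in macrophages. Gzmb was seen in 97.0%, 95.6% and 91.2% of regulatory T cells and also in 84.2%, 87.9% and 77.3% of macrophages, so its shares are not read as expression. Ccr7, the receptor for lymph node entry, was seen in 9.19%, 16.1% and 7.43%, with 4.45%, 10.3% and 5.11% in macrophages. Ccr8 was seen in 3.24%, 4.39% and 4.05%, with 1.71%, 5.17% and 1.70% in macrophages. At 12 months those macrophage shares rested on 6 and 3 of 58 cells. Mki67, a gene of dividing cells, was seen in 6.76%, 5.85% and 6.76%. The Gzmb share differed by −5.81 points between 20 and 4 months (−11.6 to −1.57), and by −3.37 points (−11.5 to 1.45) with at least 2 Foxp3 counts.

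**Figure D4:**
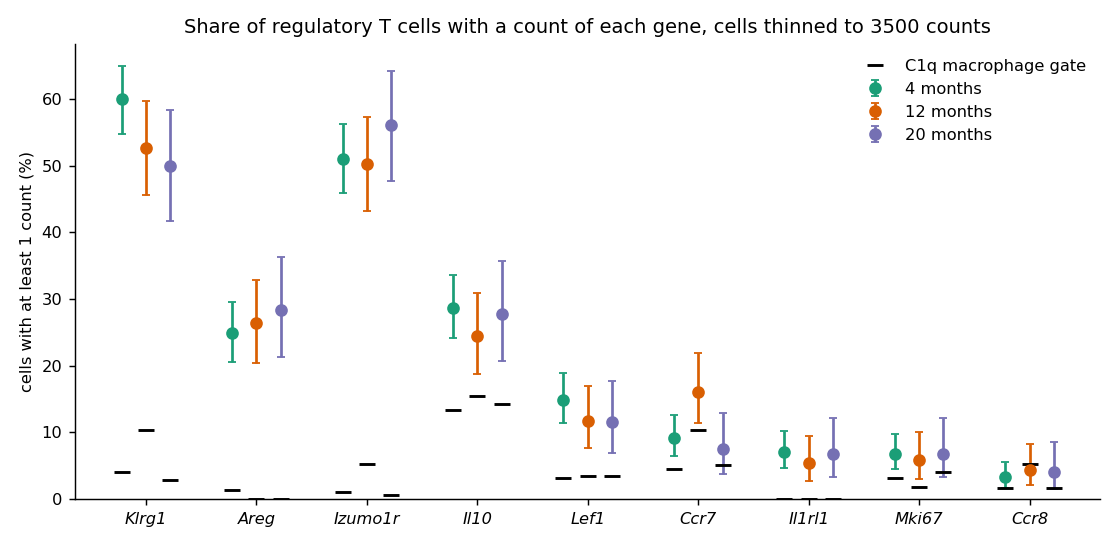
Share of regulatory T cells (points, %) with at least 1 count of 9 genes at 3 ages, every cell thinned to 3500 counts, with exact 95% binomial intervals for counting error; black dashes are C1q macrophages thinned alike. Klrg1 lies lower at 20 than at 4 months. Ccr7 lies above the macrophage share at each age, and Ccr8 lies above it at 4 and 20 months and below it at 12 months.

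Cells with and without Klrg1 were then compared within each library, as 222 and 148 cells at 4 months, 108 and 97 at 12 months, and 74 and 74 at 20 months, all thinned to 3500 counts. Of 5098 genes tested with edgeR, library as a block, 46 (0.902%) were higher and 67 (1.31%) lower in Klrg1-positive cells. Gzmb was at 7072, 5421 and 5965 CPM in Klrg1-positive cells and at 4234, 4601 and 2564 CPM in Klrg1-zero cells (log2 fold 0.71, SE 0.10, edgeR adjusted p = 0.000228). Ccr2, a receptor for monocyte chemokines that also guides activated T cells, had a log2 fold of 0.62. Icos, Tnfrsf9 and Tnfrsf18 had log2 folds of 0.60, 0.55 and 0.44, Maf one of 0.61 and Ctla4 one of 0.36. Ccr7 was lower in Klrg1-positive cells, at 28.3, 82.0 and 30.9 CPM against 114, 194 and 57.9 CPM (log2 fold −1.50, SE 0.23, edgeR adjusted p = 0.000432). Areg was not called: it lay at 218, 267 and 525 CPM in Klrg1-positive and at 278, 209 and 305 CPM in Klrg1-zero cells (log2 fold 0.19, edgeR adjusted p = 0.662).

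Genes of other cell types differed between the sides too. Of 6 NK genes tested, 4 were lower in Klrg1-positive cells, beside 1.31% of all genes tested. Lyz2 was lower by 1.19 on the log2 scale, at 719, 788 and 606 CPM against 1429, 1738 and 1764 CPM. Among T-gene-rich regulatory T cells none of these passed, Lyz2 was at 0.13, and 17 genes were called, all of them also called with all cells. Those included Gzmb, Ccr2, Icos, Tnfrsf9, Laptm4b and Glrx on the higher side and Ccr7, Ccl4 and Cul3 on the lower side; Ctla4, Maf and Tnfrsf18 no longer passed. Without the block 5 genes were higher and 7 lower, and without the 4-month library 5 and 21. By size, the named genes were Gm6637, Ankra2, Cep192, Laptm4b, Ormdl3, Lrrc8c, Gpr55, Dynlt1f, Cdk6 and Sytl3 on the higher side and Tbc1d4, Tmcc3, Cers6, Tnfsf8, Ralgapa2, Mgat4a, Cfp, Klra13-ps, Cul3 and Gm15218 on the lower; among T-gene-rich cells Laptm4b and Cul3 passed, and Tbc1d4, Tmcc3, Cers6, Tnfsf8, Ralgapa2, Mgat4a, Cfp and Gm15218 were too low to be tested. The others did not pass there, with folds that for some were no smaller: the log2 fold of Ormdl3 was 1.15 with all cells and 1.20 among T-gene-rich cells, that of Lrrc8c 0.90 and 1.00, and that of Klra13-ps −1.61 and −0.66.

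Levels in regulatory T cells were then set side by side across ages. Of 6191 genes with a mean of at least 20 CPM, 330 (5.33%) were past 1.5-fold higher and 284 (4.59%) past 1.5-fold lower at 20 than at 4 months. At 12 months the counts were 229 (3.70%) and 216 (3.49%). With 1 library per age these are sizes, not tests, and fewer cells at 20 months give wider counting error. At 20 over 4 months the log2 ratio was −0.18 for Foxp3 (−0.40 to 0.02), −0.07 for Ikzf2 and 0.10 for Izumo1r. Of 11 measured identity genes 1 was past 1.5-fold, and of 7 costimulatory receptors none. Beside the 5.33% and 4.59% of all measured genes, lists this short cannot show whether they changed less. Both lists had a median log2 ratio of −0.20, against −0.02 over all measured genes.

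Areg was higher at 20 months, at 374 CPM against 247 CPM (log2 ratio 0.60, 0.40 to 0.80), while 12 months lay lowest at 206 CPM. The share of cells with an Areg count differed by 3.51 points, with an interval of −4.60 to 12.3, and the 10 highest cells held 45.1%, 41.4% and 53.7% of its counts at 4, 12 and 20 months. With at least 2 Foxp3 counts per cell the log2 ratio was 0.23. Nfil3, a circadian and cytokine-induced transcription factor, rested on fewer counts, at 18.4, 27.2 and 37.6 CPM. Cxcr6 was at 62.9, 128 and 105 CPM in regulatory T cells, and at 660 and 507 CPM at 4 and 20 months in T-gene-rich CD8 cells.

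Itgae was lower at 20 months: it lay at 102, 55.1 and 44.2 CPM, a log2 ratio of −1.21 (−1.74 to −0.72), and was seen in 130, 43 and 29 cells. Klrg1 had a log2 ratio of −0.36 (−0.52 to −0.21). Gzmb had a log2 ratio of −0.46 (−0.52 to −0.41) in regulatory T cells. T-gene-rich CD8 cells held 3973 and 2575 CPM of Gzmb at 4 and 20 months. Gzma lay at 377, 330 and 113 CPM. It is 1 of the 7 NK genes, whose sum of 799.9, 796 and 310 CPM therefore includes it.

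Early response genes, which turn on within minutes of a signal, were lower at 20 months as a list. Of 14 measured, 4 were past 1.5-fold lower and none higher, beside 4.59% lower and 5.33% higher of all measured genes. The median log2 ratio of the list was −0.47 against −0.02 over all measured genes. The 4 were Nr4a1, Nr4a2, Fosb and Atf3, and Nr4a1, induced by T cell receptor signals, lay at 359, 324 and 235 CPM. In T-gene-rich CD8 cells the same list had a median of −0.45, in macrophages one of −0.38 and in the other CD4-gated cells one of −0.04. All measured genes had medians of −0.11, −0.03 and −0.07 in those cells. The fall of this list was thus not particular to regulatory T cells. Of 9 effector cytokine genes 4 were past 1.5-fold lower, namely Xcl1, Tnfsf8, Ifng and Ccl4, and Ccl3 was past it higher. Of 10 cytotoxic genes Prf1, Gzma and Gzmc were past it lower and Gzmk higher. The NK list, which itself includes Prf1 and Gzma, summed lower in the regulatory T cells at 20 months as well, as given above. In the T-gene-rich ones it summed to 545, 517 and 238 CPM. The part of NK signal in the cytokine and cytotoxic genes was not tested. No interferon response, MHC class I or IL-2 pathway gene was past 1.5-fold at 20 months, but most of their ratios lay below 0. Those above 0 were 2 of 20, 1 of 10 and 2 of 15 genes, beside 2921 of all 6191 measured genes. Their median log2 ratios were −0.16, −0.14 and −0.11, against −0.02 over all measured genes. In T-gene-rich CD8 cells they were −0.21, −0.10 and −0.10, and in macrophages −0.18, −0.10 and −0.12. The other CD4-gated cells gave −0.48, −0.08 and −0.37. Of 19 cell division genes 1, Aurkb, was past 1.5-fold higher, and 15 lay above 0.

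By the size rule, the highest ratios of 20 over 4 months were those of Apoe, C130026I21Rik, Gm45552, C1qb and C1qa. C1qb and C1qa are genes of the rule: regulatory T and CD8 cells alike had to hold fewer than 10 C1q counts. Their levels are bounded by that limit and are only described. Apoe, a lipid carrier that macrophages make in bulk, lay at 153, 288 and 360 CPM in regulatory T cells, with a log2 ratio of 1.24. In T-gene-rich CD8 cells it lay at 137 and 333 CPM at 4 and 20 months, and in macrophages at 2449 and 4332 CPM. C1qa lay at 162, 199 and 265 CPM in regulatory T cells and at 148 and 256 CPM in T-gene-rich CD8 cells. The macrophage level of Apoe moved the same way; its part in the T cell values was not tested. The lowest ratios were those of Fkbp1a, Irf7, Lgals3bp, Ms4a4b and Mea1. Irf7, a driver of interferon responses, lay at 917, 826 and 635 CPM in regulatory T cells (log2 ratio −0.53, −0.67 to −0.39), and at 741 and 547 CPM at 4 and 20 months in T-gene-rich CD8 cells. Ms4a4b, a T cell membrane protein, lay at 3680, 3366 and 2637 CPM, and at 5747 and 5189 CPM in T-gene-rich CD8 cells at 4 and 20 months.

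**Figure D5:**
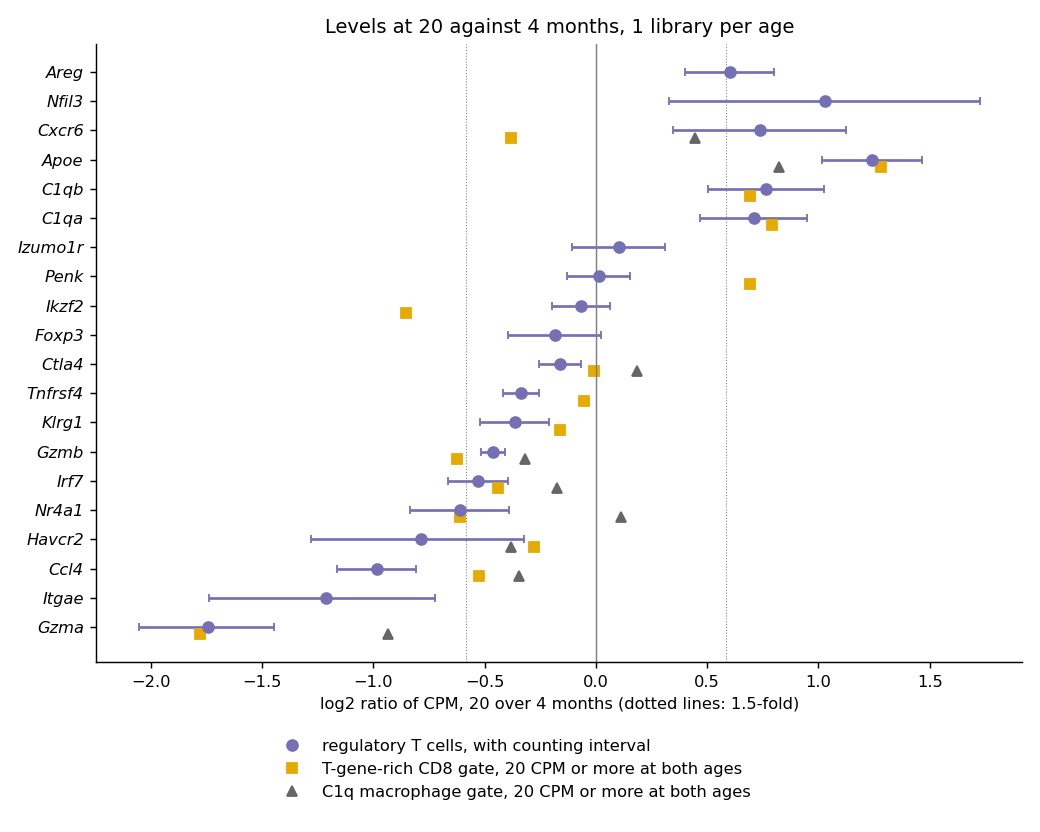
Log2 ratio of CPM at 20 over 4 months for 20 genes in regulatory T cells (circles, with 95% counting intervals), T-gene-rich CD8 cells (squares) and C1q macrophages (triangles, left out for the C1q genes that define them); 1 library per age and no test. Itgae and Gzma lie furthest to the left, Apoe furthest to the right, and Apoe, C1qa and C1qb lie alike in CD8 cells. The gates limited the C1q counts of both T cell types.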

How the data were processed

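For each of 3 libraries the deposited values are raw counts, in a sparse matrix that lists 55401 genes; STAR 2.7.10a and the build GRCm38 are named per the submitters' processing notes. The counting program, cell calling and whether molecules or reads were counted are not given in the sources used here. Of the gene identifiers, 98.1% occur in GENCODE M21. No cell filter was added; the totals per library were 110371225, 127850782 and 119873564 counts. Regulatory T cells were gated on raw counts, and comparison types likewise. Sums per library and type were tested with edgeR 4.0.16 (filterByExpr, TMM, quasi-likelihood, library as a block, adjusted p under 0.05), with DESeq2 1.42.0 as an alternative; both types of a library come from the same tumours, which pairs them. Tested on simulated data, the edgeR step recovered 97.0% of genes changed 4-fold in the CD4 comparison (8081 genes), 68.5% in the CD8 comparison (19245 genes) and 98.5% in the Klrg1 comparison (5112 genes), with 3.48%, 2.84% and 6.19% of its calls false. The simulation gave all genes of a comparison the same dispersion and changed genes 4-fold only. Its rates do not carry over to smaller changes or to genes of other spread. Thinning drew 3500 counts per cell without replacement. Doublets were kept; Scrublet (scanpy 1.11.5) marked the top 6% of cells for an alternative, 25, 15 and 12 of them regulatory T cells. Shares have exact Clopper-Pearson intervals, differences of shares Newcombe intervals and ratios exact conditional ones. Named genes are the rule's genes, the markers and list members, the 10 largest called folds each way at 20 CPM or more in the higher type in every library, and for age the 5 highest and lowest ratios with 12 months between and at most 25% of counts in the 10 highest cells. The members and lists were chosen with earlier results of these data known. A gene withheld here is not reported.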

Additional observations from a re-analysis of the deposited data

How the results depend on the processing

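The share stayed lower at 12 and at 20 months than at 4 months in 7 of 8 other gates, and without the CD8 limit it was higher at 12 months. Thinned to 3500 counts the share differed by −0.699 and −1.19 percentage points at 12 and 20 months, with at least 2 Foxp3 counts by −0.636 and −0.746, and without the CD8 limit by 0.905 and −1.24; the gate scaled to depth gave −0.446 at 12 months. The Klrg1 share of cells at 20 minus 4 months lay between −10.6 and −2.84 points, and its interval took in 0 in 3 of 4 alternatives.

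Genes past 1.5-fold, higher then lower at 12 months and higher then lower at 20 months, numbered 381, 401, 511 and 520 with thinned cells, 456, 492, 521 and 602 with at least 2 Foxp3 counts, 54, 30, 65 and 70 at a minimum of 50 CPM, 2845, 2172, 3304 and 2008 with no minimum, and 46, 38, 80 and 61 past 2-fold. Without the 10 highest cells of each gene 124 were higher at 12 months, and 165 higher and 629 lower at 20 months, since removing 10 cells takes more from the smaller sums. The gate scaled to depth gave 200 higher at 20 months. Mt2 lay at −0.19 by log2 ratio without its 10 highest cells, and Ccl4 at 0.26 with at least 2 Foxp3 counts, both opposite in sign.

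Against the other CD4 cells DESeq2 called 200 genes higher and 318 lower, no filter on low counts 905 higher, and T-gene-rich cells 270 higher and 390 lower. Leaving out a library gave 288 to 449 higher and 374 to 648 lower. Chil3 had a log2 fold of 0.052 in the depth-scaled gates. Against CD8 cells DESeq2 called 1169 lower; leaving out a library gave 1180 to 1441 higher and 1549 to 1662 lower, and Hba-a1 and Hbb-bs had log2 folds of 0.078 and 0.13 among T-gene-rich cells.

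For Klrg1-positive cells T-gene-rich cells gave 11 higher and 6 lower, DESeq2 10 and 9, no filter 109 and 130, no replicate block 5 and 7, and leaving out a library 5 to 64 and 21 to 81. Without the block, the CD4 comparison called 1193 genes and the CD8 comparison 2824, against 1238 and 3742 with it. Of 499 values for 60 named genes between cell types, 420 kept direction and call, 76 lost the call and 3 changed sign. The cause of these changes was not tested. The 148 cells at 20 months limit what could be seen there.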

Other observations

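Some small sums in the regulatory T cells came from few cells. Fscn1, a gene of mature dendritic cells, lay at 5.97, 66.4 and 32.0 CPM at 4, 12 and 20 months. At 12 months its 88 counts came from 15 cells, and the 10 highest held 94.3% of them. The dendritic list of 8 genes summed to 28.5, 88.3 and 72.9 CPM in all regulatory T cells and to 15.9, 28.3 and 20.1 CPM in the T-gene-rich ones. Red cell genes summed to 68.5, 22.6 and 11.05 CPM in regulatory T cells and to 67.4, 19.6 and 7.53 CPM in macrophages.

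Some genes outside the lists also split the regulatory T cells by Klrg1, in values chosen after they were seen. Trbc1, a constant segment of the T cell receptor beta chain, was lower in Klrg1-positive cells by a log2 fold of −0.37 (edgeR adjusted p = 0.0206), and by −0.54 among T-gene-rich cells. Lgals1, which encodes galectin-1, had a log2 fold of 0.38 and S100a6, a calcium-binding protein, one of 0.33, and both passed in both sets of cells.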
